A study of Mus musculus with 6 samples.

Results

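DNA replication and mitosis genes were followed in the liver RNA of 3 WT and 3 LKO mice. The set holds 46 genes of 45777 in the deposited table, chosen by gene symbol for their known role in origin licensing, helicase activation, the replication fork, nucleotide supply, the replication checkpoint, the cyclin-dependent kinases and mitosis. The rule uses no measured value, but the set was chosen with earlier results of these data known. WT mice were *Pak4* flox/flox, with loxP sites at the *Pak4* gene and no Cre, and LKO mice carried Alb-Cre in addition to *Pak4* flox/flox. *Pak4* encodes the serine/threonine kinase PAK4. All mice were C57BL/6, 8 weeks old and fasted for 24 h, so no fed liver enters the comparison. The study describes them as male. Cre made from the albumin promoter acts in hepatocytes, whereas the libraries were made from whole liver tissue, 1 per mouse. The tissue also holds other liver cells, and which of them keep the floxed gene was not measured here. No comparison here sets Alb-Cre alone against WT, so that the effect of the transgene itself cannot be told apart from that of the deletion.

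Replication begins when the origin recognition complex, CDC6 and CDT1 load the MCM2-7 helicase onto chromatin in the G1 phase, a step called licensing. CDC45 and the GINS complex then convert the loaded helicase into its active form, clamps and polymerases copy both strands, and cyclins paired with CDK1 and CDK2 drive the cell through S phase and into mitosis. Many of these genes are switched on together by E2F factors in late G1 and by the MuvB complexes in G2. Most hepatocytes of a healthy adult liver are quiescent, but hepatocytes keep the capacity to re-enter the cycle and many are polyploid.

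Total counts were 45934632 to 55205564 in WT and 53936281 to 59576437 in LKO mice. *Pak4* itself was at 2.44 ± 0.141 TPM (a level per gene length, scaled to the same sum in each mouse) in WT and 0.522 ± 0.295 in LKO livers (mean ± SD, n = 3 each), with read counts of 268, 210 and 271 against 85, 52 and 149. The TMM factors, which edgeR multiplies with the library size so that the bulk of genes is centred between libraries, were 1.28 to 1.43 in WT and 0.639 to 0.816 in LKO mice. They did not overlap, so each change below depends on the scale. The median log2 fold change (LKO over WT) of all 18636 genes tested was −0.039 with TMM, −0.90 when counts were divided by the total count and −0.79 on log2(TPM + 1). The markers of hepatocytes (*Alb*, *Apoa1*, *Ttr*, *Hnf4a* and *Cps1*) summed to 27199 to 31952 TMM-scaled CPM (counts relative to the scaled library size) in WT and 81079 to 101029 in LKO libraries, a sum in which *Alb* is the largest part. Of the 5, 3 were higher, *Ttr* was lower (−1.35, edgeR adjusted p = 0.0050) and *Hnf4a* did not pass (−0.30, edgeR adjusted p = 0.42).

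Of the 46 genes, 44 could be tested, and 33 were lower in LKO than in WT livers at an adjusted p-value below 0.05, while 4 were higher and 7 did not pass (edgeR's quasi-likelihood test with TMM scaling and Benjamini-Hochberg adjustment over all genes tested, the test meant by every edgeR adjusted p here). Among all genes tested, 20.5% were called lower and 19.6% higher. The median log2 fold change of the 44 genes was −1.65. With total counts 40 were called lower and 1 higher, beside 51.4% and 6.26% of all genes. With limma on log2(TPM + 1) 41 were lower and none higher, beside 71.5% and 2.43% of all genes. Relative to the median of all genes on the same scale, the median of the set was −1.62 with TMM, −1.64 with total counts and −0.85 on log2(TPM + 1), where the pseudocount of 1 shrinks the change of genes with low levels. In whole liver, fewer cells that make a transcript and less of it per cell cannot be told apart.

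All 3 LKO mice lay below all 3 WT mice in TMM-scaled CPM for 38 of the 46 genes, above them for 4, and overlapped them for 4. Over all genes tested, 27.9% were lower and 26.1% higher in every LKO mouse. In deposited counts, 41 genes were lower and 2 higher in every LKO mouse, against 51.9% and 9.67% of all genes. In TPM, 44 were lower and none was higher, against 74.9% and 2.98%.

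**Figure D1:**
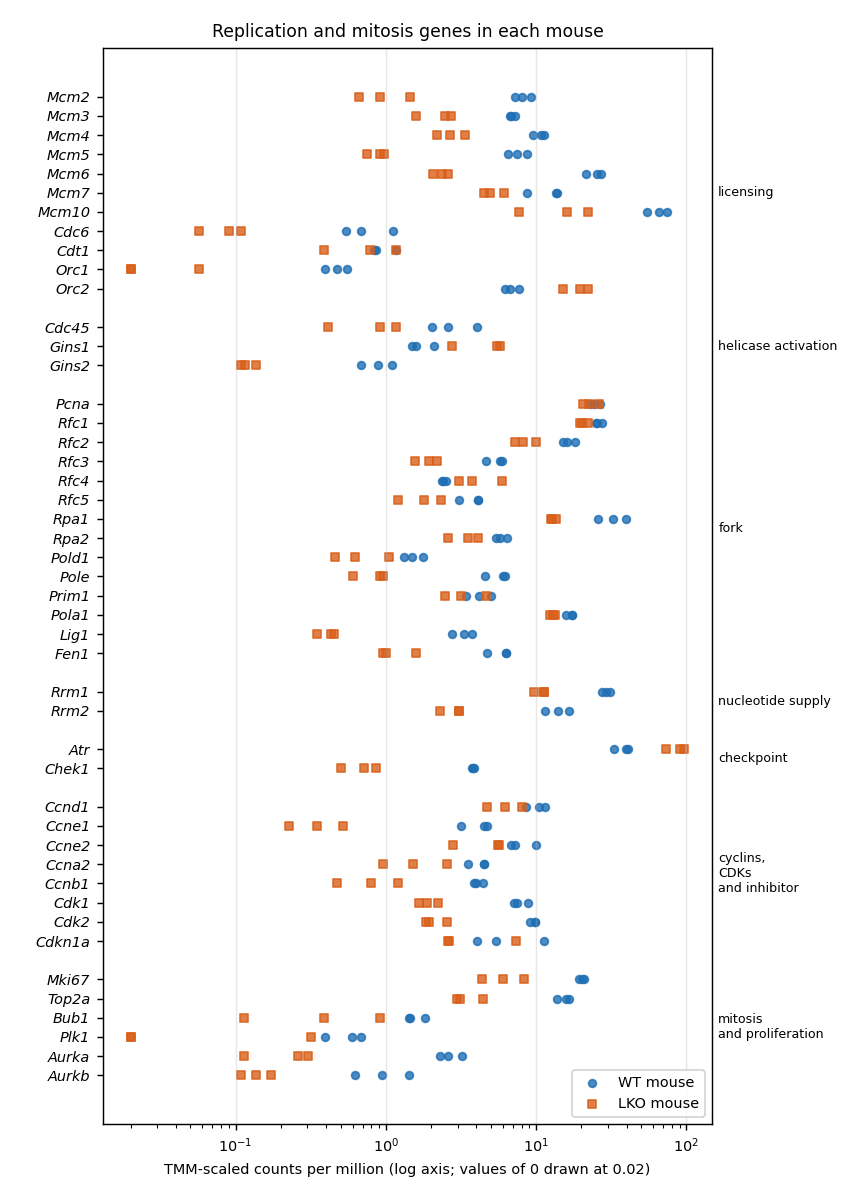
TMM-scaled CPM (log axis) of the 46 genes, grouped by role, with 1 circle for each WT mouse and 1 square for each LKO mouse. Squares lie to the left of the circles in 38 genes and to the right in 4 (*Orc2*, *Gins1*, *Rfc4* and *Atr*), and these 4 are not above WT when TPM are plotted instead. A value of 0 is drawn at 0.02.

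Licensing genes were mostly lower in LKO livers. Of 11 genes, 10 were tested, 8 were lower, 1 was higher and 1 was not called, with a median log2 fold change of −2.02. *Mcm6*, Entrez gene 17219 at chr1:128331575-128359705 in GRCm38.p6, encodes a subunit of the replicative helicase. It had 2013, 1658 and 1410 counts in WT mice 1, 2 and 3. The counts of LKO mice 1, 2 and 3 were 91, 82 and 120, and every later list of counts keeps this order. It fell 10.5-fold (log2 fold change −3.39, standard error 0.18, edgeR adjusted p = 9.8e-05). The highest LKO count was far below the lowest WT count. *Mcm5*, at chr8:75109468-75128439, had counts of 648, 425 and 492 in WT and 43, 26 and 42 in LKO mice, a fall of 8.55-fold (−3.10, standard error 0.23, edgeR adjusted p = 0.00021). *Mcm2* had 538, 607 and 536 against 29, 32 and 67 and fell 8.08-fold (−3.01, standard error 0.31, edgeR adjusted p = 0.00036). These 3 subunits had the largest log2 fold changes of the hexamer, and differences between subunits were not tested. *Mcm4* counts were 808, 740 and 630 in WT and 118, 117 and 101 in LKO mice (−1.95, standard error 0.21). *Mcm3* counts were 501, 470 and 452 against 109, 94 and 73 (−1.62, standard error 0.24). *Mcm7* counts were 1017, 905 and 575 against 216, 156 and 281 (−1.22, standard error 0.23). For these 3 the edgeR adjusted p was 0.00042, 0.0013 and 0.0039, and no LKO mouse reached the lowest WT mouse. *Mcm7* shares 84 and 88 exonic bases with *Mir25* and *Mir93* on its own strand. On the opposite strand it shares 321 with *Ap4m1* and 64 with *Cops6*, whose log2 fold change was 0.97 (edgeR adjusted p = 0.0016), and the use of strand in the counting is not given in the sources used here.

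*Mcm10*, which joins the helicase to DNA polymerase alpha, had the highest level per length of the licensing genes in WT livers, 30.9 ± 9.77 TPM, against 2.00 ± 1.04 in LKO livers (SD, n = 3), where *Orc2* was higher at 3.58 ± 0.606. Its counts were 4922, 4893 and 3610 against 974, 560 and 357, and it fell 4.26-fold (−2.09, standard error 0.34, edgeR adjusted p = 0.0021). The next in level among the licensing genes was *Mcm6* at 15.4 ± 2.37 TPM in WT. *Cdc6*, the ATPase that loads the helicase, was sparse, with 83, 45 and 36 counts in WT and 4, 2 and 5 in LKO mice, and fell (−3.14, standard error 0.49, edgeR adjusted p = 0.0017). *Cdt1*, the other loader, had 62, 76 and 57 counts in WT and 17, 41 and 36 in LKO mice. Its TMM-scaled values overlapped, and its log2 fold change of −0.30 (standard error 0.43) did not pass (edgeR adjusted p = 0.61). Without LKO mouse 1, the lowest of the 6, the value was 0.031.

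The origin recognition complex did not move as one. *Orc1*, the subunit that is made anew in each cycle, had 35, 36 and 26 counts in WT and 0, 2 and 0 in LKO mice. Because 2 of the 6 counts were 0, it was left out by the filter, which drops a gene with more than 1 zero count. Its summed count was 2 in LKO and 97 in WT mice, a ratio of 0.0187 per total count with an exact 95% interval of 0.00224 to 0.0695 that covers counting error only. On that scale the median log2 fold change of all genes tested was −0.90. Fitted without the filter, *Orc1* was lower with TMM (−4.67, edgeR adjusted p = 0.0045). *Orc2*, Entrez gene 18393 at chr1:58462771-58505113 and a subunit present throughout the cycle, had 501, 502 and 410 counts in WT and 660, 773 and 911 in LKO mice, without overlap. It rose 2.76-fold with TMM (1.46, standard error 0.19, edgeR adjusted p = 0.00079) and by 0.58 on the log2 scale with total counts (edgeR adjusted p = 0.033), but its log2(TPM + 1) differed by −0.069, so that its direction depends on the scale. *Orc2* shares 1150 exonic bases with *Nif3l1* on the opposite strand, whose log2 fold change was 0.59.

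The promoters of *Mcm6* and *Mcm5* are shown as examples of licensing genes called lower that hold the E2F motif, beside that of *Orc2*, which was not called lower with TMM. They do not stand for all licensing genes called lower, since the windows of *Mcm2* and *Mcm10* hold no E2F match. Windows are from RefSeq in GRCm38.p6, run from 250 bases before to 50 after an annotated start and are printed 5′ to 3′ on the strand of the gene, with motif matches in capitals. The motifs were searched on both strands and are the E2F motif (TTTCCCGC, TTTGGCGC, TTTCGCGC or TTTGCCGC), the cell cycle genes homology region or CHR (TTTGAA or TTCGAA), which MuvB complexes bind, and the CCAAT box of the factor NF-Y (CCAAT). A match is a description of letters and not a bound site. The *Mcm6* window lies at chr1:128359656-128359955 (minus strand), the *Mcm5* window at chr8:75109259-75109558 (plus strand) and the *Orc2* window at chr1:58505060-58505359 (minus strand), which is the nearer to the annotated gene start of its 2 windows.
Mcm6: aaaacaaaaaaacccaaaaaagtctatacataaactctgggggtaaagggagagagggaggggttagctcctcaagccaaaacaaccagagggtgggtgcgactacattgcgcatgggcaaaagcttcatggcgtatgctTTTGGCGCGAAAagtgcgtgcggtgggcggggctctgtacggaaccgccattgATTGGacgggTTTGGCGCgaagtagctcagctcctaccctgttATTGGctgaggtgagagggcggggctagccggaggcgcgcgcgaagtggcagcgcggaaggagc
Mcm5: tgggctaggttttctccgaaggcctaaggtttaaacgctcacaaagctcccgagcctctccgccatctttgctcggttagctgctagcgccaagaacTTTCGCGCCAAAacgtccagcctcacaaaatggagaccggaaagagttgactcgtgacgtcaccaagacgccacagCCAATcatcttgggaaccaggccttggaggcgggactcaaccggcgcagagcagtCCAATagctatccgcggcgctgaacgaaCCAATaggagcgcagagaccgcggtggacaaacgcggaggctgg
Orc2: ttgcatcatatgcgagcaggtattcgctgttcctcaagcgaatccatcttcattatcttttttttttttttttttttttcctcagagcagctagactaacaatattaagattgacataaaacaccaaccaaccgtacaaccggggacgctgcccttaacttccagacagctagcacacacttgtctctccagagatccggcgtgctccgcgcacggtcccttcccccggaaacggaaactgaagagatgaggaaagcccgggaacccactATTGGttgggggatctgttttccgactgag
*Mcm6* has an E2F match at −110 and another at −106, which overlap in 4 bases because the letters read as E2F on either strand, and 1 more at −47, counted from the annotated start. *Mcm5* has an overlapping pair at −153 and −149. The printed *Orc2* window holds no E2F and no CHR match, and its capitals mark a CCAAT box at 21.

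Helicase activation showed opposite changes within the GINS complex under TMM. *Cdc45* had 303, 169 and 135 counts in WT and 18, 32 and 54 in LKO mice and fell 3.48-fold (−1.80, standard error 0.43, edgeR adjusted p = 0.011). *Gins2* had 82, 58 and 45 counts against 6, 4 and 5 and fell 7.31-fold (−2.87, standard error 0.40, edgeR adjusted p = 0.0011). Both were lower in every LKO mouse. *Gins1*, which encodes the PSF1 subunit of the same complex, had 118, 97 and 139 counts in WT and 251, 191 and 128 in LKO mice, so that LKO mouse 3 fell within the WT range. It was 2.69-fold higher with TMM (1.43, standard error 0.32, edgeR adjusted p = 0.0085), but 0.57 with total counts did not pass (edgeR adjusted p = 0.17) and log2(TPM + 1) differed by −0.11. *Gins1* had the highest level per length of the 3 in both groups, 3.09 ± 0.416 TPM in WT and 2.85 ± 0.961 in LKO livers. *Gins2* shares 2758 exonic bases with *Gse1* on the opposite strand, which was itself lower (−1.14, edgeR adjusted p = 0.012) at 5.08 to 10.2 CPM in WT mice.

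At the replication fork, 9 of 14 genes were lower, 1 was higher and 4 were not called, and the median log2 fold change was −1.02. The 3 largest falls were in *Lig1*, *Pole* and *Fen1*. *Lig1*, the ligase that seals Okazaki fragments, had 247, 244 and 183 counts in WT and 20, 15 and 16 in LKO mice and fell 7.95-fold (−2.99, standard error 0.28, edgeR adjusted p = 0.00031). *Pole*, the catalytic subunit of the leading-strand polymerase, had 446, 407 and 302 counts against 42, 32 and 28 and fell 6.78-fold (−2.76, standard error 0.27, edgeR adjusted p = 0.00033). *Fen1*, the flap endonuclease of Okazaki fragments, had 468, 307 and 419 counts against 44, 55 and 44 and fell 4.93-fold (−2.30, standard error 0.28, edgeR adjusted p = 0.00059). In all 3 the LKO counts stayed below the lowest WT count by a wide margin. *Pold1*, the catalytic subunit of the lagging-strand polymerase, had 98, 97 and 116 counts in WT and 46, 16 and 29 in LKO mice (−1.08, standard error 0.36, edgeR adjusted p = 0.043). The call was kept without LKO mouse 1 (edgeR adjusted p = 0.016) and was lost in the other fits that left out a mouse, where the edgeR adjusted p was 0.075, 0.091 and 0.13 without WT mouse 1, 2 or 3 and 0.11 and 0.097 without LKO mouse 2 or 3.

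The single-strand binding proteins were lower. *Rpa1* had 2940, 1697 and 2142 counts in WT and 564, 476 and 585 in LKO mice (−1.32, standard error 0.18, edgeR adjusted p = 0.00089). *Rpa2* had 477, 378 and 360 counts against 155, 142 and 119 (−0.80, standard error 0.22, edgeR adjusted p = 0.022). Without WT mouse 1 or 2 the edgeR adjusted p of *Rpa2* was 0.072 or 0.0501. The clamp loader, replication factor C, split between its subunits. *Rfc3* had 429, 389 and 309 counts in WT and 97, 67 and 72 in LKO mice (−1.53, standard error 0.23, edgeR adjusted p = 0.0014). *Rfc2* had 1197, 1180 and 1000 against 360, 348 and 335 (−0.96, standard error 0.17, edgeR adjusted p = 0.0033). Both were lower in every LKO mouse. *Rfc5* had 305, 200 and 271 counts against 102, 63 and 56 (−1.08, standard error 0.29, edgeR adjusted p = 0.019), with an edgeR adjusted p of 0.064 without WT mouse 1, 0.065 without WT mouse 3 and 0.054 without LKO mouse 2. *Rfc1*, the large subunit, had 1894, 1649 and 1801 counts against 969, 682 and 931 and did not pass with TMM (−0.33, standard error 0.13, edgeR adjusted p = 0.072). The remaining subunit, *Rfc4*, had 175, 156 and 166 counts in WT and 165, 208 and 142 in LKO mice, which overlap. It was called higher with TMM (0.82, standard error 0.28, edgeR adjusted p = 0.046), differed by −0.082 with total counts (edgeR adjusted p = 0.81) and was called lower on log2(TPM + 1) (−0.58, limma adjusted p = 0.013), so that no direction can be given without the scale. The TMM call was also lost on leaving out WT mouse 1, 2 or 3 (edgeR adjusted p = 0.11, 0.11 and 0.097), LKO mouse 1 (0.057) or LKO mouse 2 (0.15, log2 fold change 0.50). *Rfc4* shares 194 exonic bases with *Eif4a2* on the opposite strand, a gene of 190 to 217 CPM in WT and 547 to 694 CPM in LKO mice.

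*Pcna*, the sliding clamp, was the fork gene of the highest level per length, 38.6 ± 5.44 TPM in WT and 12.3 ± 0.838 in LKO livers (SD, n = 3). Its counts were 1808, 1745 and 1520 against 990, 915 and 946. The counts did not overlap, but the TMM-scaled values did, and its log2 fold change was −0.10 with TMM (standard error 0.15, edgeR adjusted p = 0.64) and −0.98 with total counts (edgeR adjusted p = 0.0013). DNA polymerase alpha and primase, which lay down the primers, also missed the threshold with TMM. *Pola1* had 1293, 1137 and 1053 counts in WT and 546, 465 and 601 in LKO mice (−0.39, standard error 0.14, edgeR adjusted p = 0.051). *Prim1* had 255, 329 and 277 counts against 205, 110 and 114 (−0.30, standard error 0.28, edgeR adjusted p = 0.43). With total counts, *Pola1* and *Prim1* were called lower (−1.26 and −1.15, edgeR adjusted p = 0.00051 and 0.016). The same held for the other genes that TMM did not call, since all 7 were lower with total counts, a scale on which the median of all genes was itself −0.90.

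**Figure D2:**
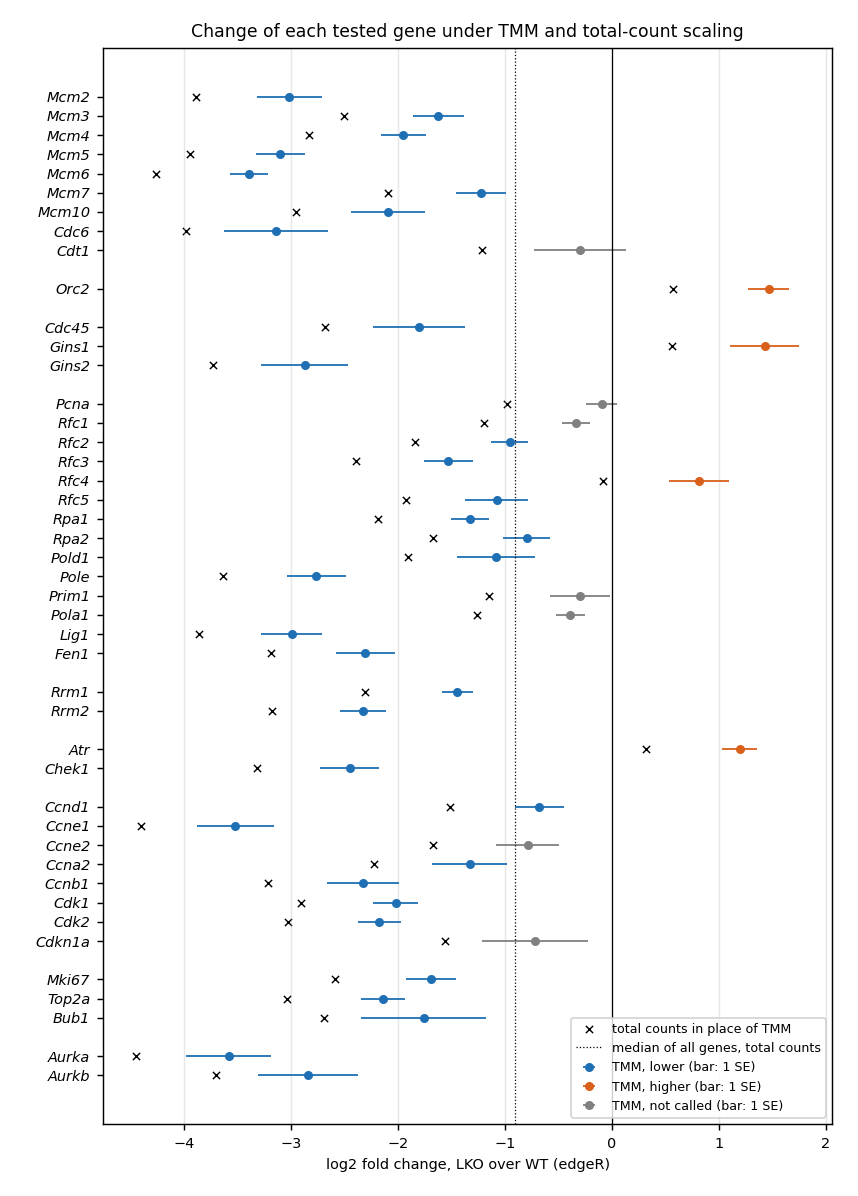
Log2 fold change of LKO over WT (x axis) for the 44 genes tested, with TMM (points, bars of 1 standard error) and with total counts (crosses). The crosses lie to the left of the points throughout, the dotted line marks the median of all genes with total counts (−0.90), and *Rfc4* passes from above 0 with TMM to below 0 with total counts.

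Both subunits of ribonucleotide reductase, which makes deoxyribonucleotides, were lower. *Rrm1* had 2306, 1909 and 1818 counts in WT and 500, 392 and 446 in LKO mice and fell 2.72-fold (−1.44, standard error 0.14, edgeR adjusted p = 0.00033). *Rrm2*, the subunit made in S phase, had 1036, 752 and 1096 counts against 134, 107 and 106 and fell 5.0-fold (−2.32, standard error 0.21, edgeR adjusted p = 0.00030). No LKO mouse came near a WT mouse in either gene. Per length, *Rrm1* was at 14.4 ± 1.46 TPM and *Rrm2* at 12.5 ± 1.49 in WT, and at 1.82 ± 0.270 and 0.860 ± 0.139 in LKO livers.

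The 2 kinases of the replication checkpoint moved apart under TMM. *Chek1*, the effector kinase, had 282, 244 and 257 counts in WT and 22, 25 and 40 in LKO mice and fell 5.46-fold (−2.45, standard error 0.28, edgeR adjusted p = 0.00048). *Atr*, the sensor kinase, had 2477, 2609 and 2717 counts against 4012, 3385 and 3375, higher in every LKO mouse. It rose 2.29-fold with TMM (1.19, standard error 0.16, edgeR adjusted p = 0.00099), whereas 0.32 with total counts did not pass (edgeR adjusted p = 0.14) and log2(TPM + 1) differed by −0.32, with every LKO mouse below every WT mouse in TPM (8.67 ± 0.700 in WT and 6.73 ± 0.545 in LKO livers).

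Among the cyclins, cyclin-dependent kinases and their inhibitor, 6 of 8 were lower and 2 were not called, with a median log2 fold change of −1.67. *Ccne1*, the cyclin E1 gene that starts S phase with CDK2, had 234, 310 and 297 counts in WT and 10, 18 and 16 in LKO mice and fell 11.5-fold (−3.52, standard error 0.36, edgeR adjusted p = 0.00037). *Ccne2*, its paralog, had 749, 470 and 453 counts against 124, 193 and 260 and did not pass (−0.79, standard error 0.29, edgeR adjusted p = 0.063), although all LKO mice were below all WT mice. The difference between the paralogs was not tested. *Ccne2* shares 609 exonic bases with *Ints8* on the opposite strand, at 24.3 to 26.5 CPM in WT and 22.8 to 32.0 in LKO mice. The log2 fold change of *Ints8* was 0.13 (edgeR adjusted p = 0.55). *Cdk2* had 678, 640 and 645 counts in WT and 113, 64 and 89 in LKO mice and fell 4.51-fold (−2.17, standard error 0.20, edgeR adjusted p = 0.00030). It had the highest WT level per length of the group, 7.97 ± 0.634 TPM, against 0.592 ± 0.179 in LKO livers.

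The mitotic cyclins and their kinase were also lower. *Ccnb1*, cyclin B1, had 289, 262 and 291 counts in WT and 35, 42 and 22 in LKO mice and fell 5.01-fold (−2.32, standard error 0.34, edgeR adjusted p = 0.0013). *Cdk1*, Entrez gene 12534 at chr10:69335146-69352912, had 553, 574 and 473 counts against 83, 77 and 77 and fell 4.06-fold (−2.02, standard error 0.21, edgeR adjusted p = 0.00037). Counts of both genes were far apart between the groups. *Ccna2*, cyclin A2, had 334, 231 and 299 counts against 67, 89 and 44 (−1.33, standard error 0.35, edgeR adjusted p = 0.017, and 0.051 without WT mouse 3). It shares 510 exonic bases with *Exosc9* on the opposite strand, whose log2 fold change was 1.87.

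*Ccnd1*, cyclin D1, which links growth signals to the cycle, changed least among the genes called lower. Its counts were 774, 560 and 755 in WT and 271, 165 and 372 in LKO mice (−0.68, standard error 0.23, edgeR adjusted p = 0.044). The call was lost without WT mouse 1, 2 or 3 (edgeR adjusted p = 0.12, 0.054 and 0.15) and without LKO mouse 1 or 2 (0.094 and 0.12), and *Ccnd1* shares 1100 exonic bases with *LTO1* on the opposite strand, which was itself lower (−0.85, edgeR adjusted p = 0.040). *Cdkn1a*, which encodes the inhibitor p21 and is a target of p53, varied most within WT, with counts of 835, 353 and 266 in WT and 116, 90 and 337 in LKO mice. LKO mouse 3 lay within the WT range and WT mouse 1 far above the other WT mice. The log2 fold change was −0.72 (standard error 0.50, edgeR adjusted p = 0.29), and −1.40 without LKO mouse 3, where it passed (edgeR adjusted p = 0.040). Without WT mouse 1 it was −0.16 (edgeR adjusted p = 0.83).

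Mitosis and proliferation genes were lower in all 5 that could be tested, with a median log2 fold change of −2.14. *Mki67*, the gene of the proliferation marker Ki-67, had 1440, 1362 and 1327 counts in WT and 191, 291 and 280 in LKO mice and fell 3.22-fold (−1.69, standard error 0.23, edgeR adjusted p = 0.0010). *Top2a*, Entrez gene 21973 at chr11:98992947-99024199 and the topoisomerase that untangles sister chromatids, had 1242, 1036 and 916 counts against 130, 155 and 145 and fell 4.41-fold (−2.14, standard error 0.21, edgeR adjusted p = 0.00032). Its WT level of 5.84 ± 0.804 TPM was the highest of the group, and its LKO level was 0.443 ± 0.0282 TPM. Both genes were well counted in every WT mouse, and no LKO mouse overlapped them.

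The mitotic kinases were sparser. *Aurka*, Entrez gene 20878 at chr2:172356190-172370886 and the kinase of the spindle poles, had 241, 149 and 172 counts in WT and 5, 9 and 14 in LKO mice, the largest fall of the 44 genes with TMM at 12-fold (−3.58, standard error 0.40, edgeR adjusted p = 0.00045). *Aurkb*, the kinase of the chromosomal passenger complex, had 106, 41 and 62 counts against 6, 6 and 5 and fell 7.17-fold (−2.84, standard error 0.47, edgeR adjusted p = 0.0021). *Bub1*, of the spindle checkpoint, had 136, 95 and 94 counts against 5, 32 and 18. The LKO mice differed among themselves in *Bub1*, and its call (−1.76, standard error 0.58, edgeR adjusted p = 0.042) was lost without WT mouse 1, 2 or 3 (0.10, 0.078 and 0.075) and without LKO mouse 1 or 3 (0.053 and 0.096), while the value was −2.62 without LKO mouse 2 (edgeR adjusted p = 0.012). *Plk1*, the polo-like kinase, had 51, 39 and 26 counts in WT and 0, 11 and 0 in LKO mice and was left out by the filter on zeros. Its summed count was 11 in LKO and 116 in WT mice, a ratio of 0.0861 per total count (exact 95% interval 0.0418 to 0.160, counting error only), and all 11 LKO counts came from LKO mouse 2. On the scale of total counts the median log2 fold change of all genes tested was −0.90. Fitted without the filter, *Plk1* did not pass with TMM (−2.53, edgeR adjusted p = 0.11).

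The promoter windows of *Cdk1*, *Top2a* and *Aurka* are shown as examples of the genes of G2 and mitosis called lower, since each holds CHR and CCAAT matches. They do not stand for all such genes, since the window of *Ccnb1* holds 2 CCAAT boxes and no CHR match. The windows shown lie at chr10:69352863-69353162, chr11:99024140-99024439 and chr2:172370521-172370820 in GRCm38.p6, all on the minus strand, and are printed in the direction of transcription with the matches in capitals.
Cdk1: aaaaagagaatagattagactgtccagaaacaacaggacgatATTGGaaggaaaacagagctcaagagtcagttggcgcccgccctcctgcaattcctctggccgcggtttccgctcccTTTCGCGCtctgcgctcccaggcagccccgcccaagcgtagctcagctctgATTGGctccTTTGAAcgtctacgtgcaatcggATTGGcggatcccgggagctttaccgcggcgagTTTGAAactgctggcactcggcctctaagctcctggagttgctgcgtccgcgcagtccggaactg
Top2a: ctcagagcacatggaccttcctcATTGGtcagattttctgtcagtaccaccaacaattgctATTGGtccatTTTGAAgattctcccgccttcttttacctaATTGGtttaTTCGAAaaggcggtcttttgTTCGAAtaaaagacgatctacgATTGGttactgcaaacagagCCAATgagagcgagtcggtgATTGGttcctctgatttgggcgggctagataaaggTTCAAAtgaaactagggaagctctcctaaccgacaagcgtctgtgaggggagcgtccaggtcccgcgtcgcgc
Aurka: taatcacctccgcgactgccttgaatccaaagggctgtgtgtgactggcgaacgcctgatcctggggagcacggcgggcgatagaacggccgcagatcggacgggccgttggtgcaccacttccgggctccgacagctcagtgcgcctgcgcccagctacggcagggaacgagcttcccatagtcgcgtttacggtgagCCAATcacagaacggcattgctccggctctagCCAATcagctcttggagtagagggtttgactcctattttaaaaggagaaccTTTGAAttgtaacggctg
*Cdk1* holds an E2F match at −131 and CHR matches at −71 and −15. *Top2a* holds 4 CHR matches, the nearest to the start at −23, and 6 CCAAT boxes. *Aurka* holds a CHR match at 33 and CCAAT boxes at −51 and −19. No capitals of different motifs overlap in the windows shown.

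Windows were found for 37 of the 46 genes, 43 in all, since a gene can have several annotated starts. Of these, 13 (30.2%) held an E2F match, 12 (27.9%) a CHR match and 28 (65.1%) a CCAAT box, against 2.26%, 19.2% and 37.4% of all 32851 windows of the same length. Among the windows of genes tested the shares were 3.51%, 15.2% and 37.6%, and among those of all genes called lower 4.07%, 14.5% and 38.4%. E2F matches were found in 7 of 12 licensing windows and in 0 of 5 windows of mitosis and proliferation genes. CHR matches showed the opposite split, with 2 of 12 and 5 of 5 windows. By direction, E2F matches were in 10 of 30 windows of genes called lower, in 2 of 7 windows of genes not called and in 0 of 4 windows of genes called higher with TMM. CHR matches were in 10 of 30, 0 of 7 and 1 of 4 of these windows, and CCAAT boxes in 20 of 30, 4 of 7 and 2 of 4. The 4 windows of genes called higher belong to 3 genes, and absence of a motif from a window says nothing about its factor.

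**Figure D3:**
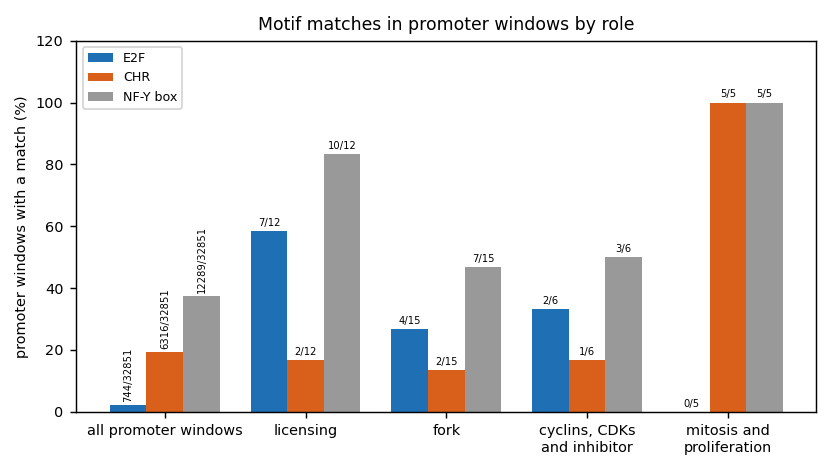
Share of promoter windows (y axis, percent) with at least 1 match to the E2F motif, the CHR motif and the CCAAT box (NF-Y box), for all 32851 windows and for 4 role groups, with the counts above the bars. Licensing windows hold E2F matches in 7 of 12 and mitosis windows hold CHR matches in 5 of 5.

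Single mice contributed unequally. The TMM-scaled CPM of the 46 genes summed to 502, 493 and 460 in WT mice 1, 2 and 3 and to 288, 311 and 256 in LKO mice 1, 2 and 3. No LKO mouse reached a WT mouse in this sum. Among the LKO mice, mouse 2 had the highest scaled value in 23 of the 46 genes and mouse 3 the lowest in 23. In deposited counts the order differed, with sums of 12665, 10857 and 11844 in LKO mice 1, 2 and 3, so the ranking of single mice depends on the scale. The median coefficient of variation of the 46 genes was 14.5% in WT and 26.3% in LKO mice. Counts of most of these genes are lower in LKO mice, and whether that accounts for the wider spread was not tested.

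Other genes of the cell cycle were read from a list of 100 that holds none of the 46. Of 99 tested, 55 were lower, 12 higher and 32 not called, with a median log2 fold change of −0.96, beside the 20.5% and 19.6% of all genes. With total counts 81 were lower and 3 higher, beside 51.4% and 6.26% of all genes. The share of rises among the calls was 3.57% in place of 17.9% with TMM, and among the calls of all genes it went from 49.0% to 10.9%. The 5 largest falls were in *Cdc20*, the activator of the anaphase-promoting complex (−3.98), *Uhrf1*, which maintains DNA methylation at the fork (−3.95), *Prc1*, a bundler of spindle microtubules (−3.67), the histone chaperone *Asf1b* (−3.20) and *Nuf2* of the outer kinetochore (−3.05), with edgeR adjusted p-values of 0.0027, 0.0026, 0.00018, 0.012 and 0.00058. *Prc1* had 410, 391 and 341 counts in WT and 16, 17 and 21 in LKO mice. *Cdc20* had 218, 127 and 143 counts against 11, 7 and 0. All LKO mice were below all WT mice in these genes. *Cdca8*, borealin of the passenger complex that holds AURKB, had 109, 60 and 53 counts against 0, 0 and 4 and was left out by the filter.

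The 5 largest rises with TMM were in *Pttg1*, *Gmnn*, *Cdkn1c*, *Pole4* and *Orc5*. *Pttg1*, which encodes securin, had 694, 359 and 221 counts in WT and 1253, 1262 and 1360 in LKO mice. It rose with TMM (2.37, standard error 0.34, edgeR adjusted p = 0.0012), with total counts (1.49, edgeR adjusted p = 0.0054) and on log2(TPM + 1) (1.06, limma adjusted p = 0.019). *Gmnn*, geminin, the inhibitor of CDT1, had 237, 276 and 306 counts against 555, 629 and 695. It rose with TMM (1.93, standard error 0.22, edgeR adjusted p = 0.00046) and with total counts (1.04, edgeR adjusted p = 0.0029), and its log2(TPM + 1) differed by 0.35 (limma adjusted p = 0.10). *Cdkn1c*, the inhibitor p57, had 48, 20 and 17 counts against 60, 50 and 63 and rose with TMM (1.77, edgeR adjusted p = 0.0092), while 0.91 with total counts did not pass (edgeR adjusted p = 0.099). *Pole4* (1.51) and *Orc5* (1.47) were higher with TMM (edgeR adjusted p = 0.0069 and 0.0012), but their log2(TPM + 1) differed by −0.11 and −0.10. The other origin recognition subunits, named here after their values were seen, were higher with TMM and not on log2(TPM + 1), where *Orc3* (1.40 with TMM) differed by −0.18, *Orc4* (1.07) by −0.43 and *Orc6* (0.62) by −0.72.

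Targets of p53, of which *Cdkn1a* is one, were read from a list of 25 other genes. Of 24 tested, 10 were lower, 3 higher and 11 not called, beside 20.5% lower and 19.6% higher among all genes. The median log2 fold change of the list was 0.064 and changed sign without LKO mouse 1 (−0.042), 2 (−0.15) or 3 (−0.43). With total counts 15 were lower (62.5%) and none higher, beside 51.4% and 6.26% of all genes, and the share of rises among the calls was 23.1% with TMM. *Eda2r* had 1339, 1205 and 575 counts in WT and 72, 28 and 44 in LKO mice, the largest fall among the genes tested of the list (−3.72, standard error 0.39, edgeR adjusted p = 0.00037). The other large falls were in *Zmat3* (−1.75), *Plk2* (−1.28), *Tigar* (−1.20) and *Phlda3* (−1.13), with edgeR adjusted p-values of 0.0015, 0.0037, 0.0019 and 0.023, and *Phlda3* passed in 3 of the 6 fits that left out a mouse. *Tnfrsf10b*, a death receptor, had 149, 128 and 74 counts against 3, 0 and 0 and was left out by the filter. The 3 rises depended on the scale, since *Sesn1* (1.99 with TMM), *Ei24* (0.95) and *Rrm2b* (0.67) were at 1.16, 0.10 and −0.21 with total counts, none of which passed. *Sesn1* had 756, 701 and 5226 counts in LKO mice, so that LKO mouse 3 stood apart, against 908, 929 and 752 in WT. Its log2 fold change was 0.57 without LKO mouse 3, and the call was kept in 3 of the 6 fits that left out a mouse. LKO mouse 3 also stood apart in some uncalled genes of the list, named here after their values were seen. Counts in LKO mice were 9928, 14705 and 111667 for *Trp53inp1*, 313, 328 and 1748 for *Btg2* and 99, 72 and 398 for *Sesn2*. This did not hold across the list, where *Mdm2* had 1024, 853 and 1142. *Rrm2b*, the p53-induced partner of RRM1, passed in 1 of the 6 fits that left out a mouse.

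**Figure D4:**
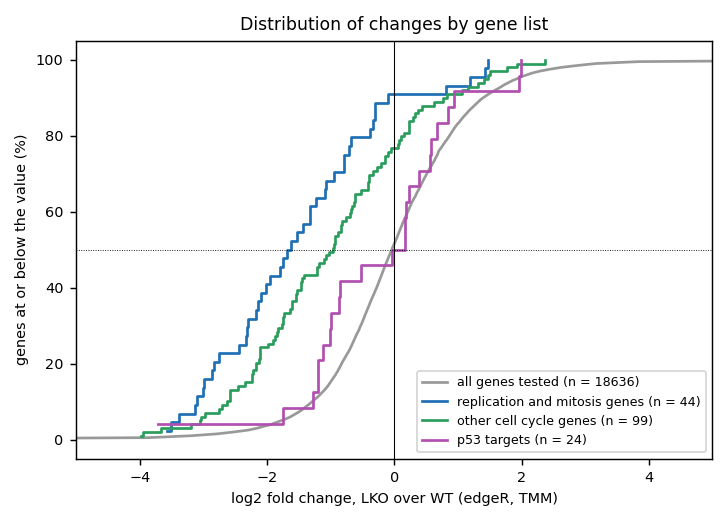
Cumulative share of genes (y axis, percent) at or below each log2 fold change of LKO over WT with TMM (x axis) for all 18636 genes tested and 3 gene lists. The curve of the 44 replication and mitosis genes crosses 50% at a median of −1.65, that of 99 other cell cycle genes at −0.96 and those of 24 p53 targets and of all genes near 0, and with total counts the median of all genes lies at −0.90 instead.

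Markers of other liver cells were read beside these changes. In TMM-scaled CPM, 5 markers of Kupffer cells summed to 210 to 327 in WT and 383 to 761 in LKO mice (3 of 5 higher), 5 of endothelial cells to 211 to 252 and 362 to 389 (3 higher) and 5 of stellate cells to 219 to 259 and 567 to 839 (3 higher). In TPM the sums of the Kupffer, endothelial and stellate markers overlapped between the groups, as did those of the hepatocyte markers. Leukocyte markers summed to 49.5 to 73.1 CPM in WT and 33.8 to 52.4 in LKO mice, which overlap, and 1 of 6 (*Nkg7*) was lower. In TPM these sums were 42.0 to 69.8 and 11.04 to 14.6. Erythroid markers summed to 102 to 157 CPM in WT and 273 to 505 in LKO mice (1 of 5 tested higher, 1 lower). In TPM the erythroid sums were 229 to 365 and 306 to 608, which overlap. Cholangiocyte markers summed to 1.93 to 2.39 CPM in WT and 2.03 to 3.84 in LKO mice. In TPM the cholangiocyte sums were 1.43 to 1.53 in WT and 0.614 to 0.756 in LKO mice, without overlap. On this scale, which also sets the leukocyte sums apart, 74.9% of all genes tested were lower in every LKO mouse. Of the 5 cholangiocyte markers 3 were tested and none was called, and *Sox9* was the largest part of their CPM sum in every mouse. No defining marker was at 0 in every library. The part of these cells in the lower replication and mitosis genes was not tested.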

How the data were processed

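Liver RNA of 3 WT and 3 LKO mice was sequenced by the authors. Each library stands for 1 mouse, and the groups follow the labelled genotype. The deposited table gives read counts for each gene, which the authors obtained with StringTie and did not normalize, as whole numbers derived from coverage. It also gives FPKM and TPM, which the authors computed per gene length and scaled for depth. The submitters' processing notes name bcl2fastq 2.20.0, FastQC 0.11.7, HISAT2 2.1.0, Bowtie2 2.3.4.1, StringTie 2.1.3b and the genome build mm10. The methods describe a total RNA kit with removal of rRNA, whereas the labels name a kit that selects mRNA. Both are stranded kits, but whether the counting used strand is not given in the sources used here.

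Genes with more than 1 zero count were left out, as in the study, which kept 18636 of 45777 genes. The main test on the deposited counts was the quasi-likelihood test in edgeR 4.0.16 under R 4.3.3 (TMM, genotype as the factor, two-sided, Benjamini-Hochberg adjustment over all genes tested, threshold 0.05), where the study used the exact test of edgeR. P-values rest on the spread between 3 mice per group, and total counts were 45934632 to 59576437. Folds are powers of 2 of the fitted log2 fold change. Alternatives were exactTest, DESeq2 1.42.0 and its size factors, upper-quartile and total-count scaling, a block for the replicate number, 3 further low-count filters, correcting for gene length (lowess, span 0.3, on the ratio of count to FPKM), both together, limma 3.58.1 on log2(TPM + 1) and log2(TPM + 0.1), and leaving out each mouse. A fit of protein-coding genes alone was chosen after seeing the data. The procedure was tested on simulated counts.

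The 46 genes and the other lists were chosen with earlier results of these data known. Counts per mouse are given for each gene called, each gene left out by the filter, the gene of highest TPM in each role, *Mki67*, *Cdkn1a*, *Ccnd1* and *Pak4*, and for the remaining genes of the set. Of the other lists, up to 5 called genes of the largest rise and fall are named, and a few further genes. Entrez numbers of 45679 genes matched RefSeq in GRCm38.p6, the assembly behind mm10. Shared exonic bases come from the GENCODE vM21 annotation and are not given above for every gene that has them. On the opposite strand, *Cdc45* shares 209 with *Ufd1*, *Fen1* 1909 with *Gm10143*, *Rfc2* 952 with *Lat2* and *Rfc5* 499 with *Wsb2*. The qPCR and protein experiments were not analysed here.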

Additional observations from a re-analysis of the deposited data

How the results depend on the processing

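For the 33 genes called lower, 625 of 655 values under the alternatives kept direction and call, 30 lost the call and none reversed. Called lower were 28 to 32 of the 44 genes tested on leaving out a mouse, beside 15.3% to 20.3% of all genes. Under the other settings 29 to 41 were lower, beside 15.2% to 72.6% of all genes. The 29 came from a filter of at least 10 counts in every mouse, which tested 39 of the set and called 24.8% of all genes lower. The 41 came from limma on log2(TPM + 1) and log2(TPM + 0.1). Called higher were 4 with TMM and 3 to 4 on leaving out a mouse, but 1 with total counts and 0 with limma on log2(TPM + 1) or log2(TPM + 0.1). Of all 18636 genes tested, 2796 to 3517 were called higher on leaving out a mouse, 1167 with total counts and 453 and 467 on the TPM scales. On these TPM scales *Orc2* was at −0.069 and −0.086, *Gins1* at −0.11 and −0.16, *Rfc4* at −0.58 and −0.76 and *Atr* at −0.32 and −0.36, while *Rfc4* was at −0.082 with total counts and *Cdt1* ranged from −0.70 to 0.031 on leaving out a mouse (−0.70 without LKO mouse 2, 0.031 without LKO mouse 1). On log2(TPM + 1) and log2(TPM + 0.1), 71.5% and 72.6% of all genes tested were lower. Of the other cell cycle genes, 90 of 99 were lower and 1 higher on both TPM scales and 3 higher with total counts. Of the p53 targets, 19 of 24 (79.2%) were lower and 0 higher on both TPM scales, and 0 were higher with total counts and 1 to 4 on leaving out a mouse. The cause of these shifts between scales was not tested.

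Replicate numbers are shared between WT and LKO mice, but deviations of same-numbered mice correlated at −0.056 to 0.00023 over 3 pairs, so the numbers were not read as pairs. With the number as a block, 32 of the 44 genes tested were lower and 3 higher. The counts were 49 and 10 of 99 other cell cycle genes, and 8 and 1 of 24 p53 targets. Of all 18636 genes tested, 3302 (17.7%) were lower and 3129 higher with this block. Without the filter on zeros, *Orc1* was lower (−4.67, edgeR adjusted p = 0.0045) and *Plk1* did not pass (−2.53, edgeR adjusted p = 0.11).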
